A study of Homo sapiens with 9 samples.

Results

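The interleukin 1 (IL1) family was read as 10 genes chosen by symbol, and all 10 were found among the 60199 symbols of the count table. They were the ligands IL1A, IL1B, IL18, IL33 and IL36G, the receptor antagonist IL1RN, the receptors IL1R1, IL1R2 and IL1RL1, and the accessory chain IL1RAP. RNA came from 9 cultures, 3 for each of 3 lines. CT was MCF10A, a non-malignant human mammary epithelial line lacking CDKN2A, grown without added BMP2 or IL6. MC26 came from unsorted MCF10A cells after long exposure to BMP2 and IL6, and M1B26 from a BMPR1B-positive sort (a receptor of BMP ligands) of MCF10A given the same factors. M1B26 was expanded from 3 soft-agar clones, and which clone any M1B26 library holds is not given in the labels. Both transformed lines were kept in BMP2 and IL6 (5 and 10 ng/microliter in the labels, amounts that differ from those in the methods of the study), so line and cytokine exposure cannot be told apart. No preparation batch is named in the labels, and batch and line cannot be told apart. The cultures are described as independent, and p-values measure the spread between cultures of a line. Variation between separate transformations of MCF10A is not covered by that spread.

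IL1A and IL1B are agonists that bind IL1R1. The bound receptor recruits IL1RAP, and the complex signals through MYD88 and IRAK kinases to NF-kB. IL1RN occupies IL1R1 without signalling, and IL1R2 is a decoy that binds ligand but lacks the intracellular signalling domain. IL33 signals through IL1RL1 (also called ST2) with IL1RAP, IL18 through IL18R1 with IL18RAP, and IL36G through IL1RL2 with IL1RAP. IL1A and IL33 are known as alarmins released by damaged epithelium, whereas IL1B and IL18 are made as precursors that caspase 1 cleaves.

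The agonist genes IL1A and IL1B lie side by side on chromosome 2 and both rose in the transformed lines, so the 250 bases before their RefSeq starts (GRCh38.p14, minus strand, written 5′ to 3′ on that strand) are shown. They lie at chr2:112784494-112784743 for IL1A and chr2:112836780-112837029 for IL1B. Capitals mark matches on either strand to TGANTCA (AP-1), TTNNGNAA (C/EBP) and TTCNNNGAA (STAT).

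IL1A: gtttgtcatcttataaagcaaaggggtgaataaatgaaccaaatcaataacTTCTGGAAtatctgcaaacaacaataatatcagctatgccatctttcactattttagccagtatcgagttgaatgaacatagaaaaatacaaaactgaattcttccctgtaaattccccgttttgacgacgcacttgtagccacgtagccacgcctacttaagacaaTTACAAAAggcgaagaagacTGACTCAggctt

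IL1B: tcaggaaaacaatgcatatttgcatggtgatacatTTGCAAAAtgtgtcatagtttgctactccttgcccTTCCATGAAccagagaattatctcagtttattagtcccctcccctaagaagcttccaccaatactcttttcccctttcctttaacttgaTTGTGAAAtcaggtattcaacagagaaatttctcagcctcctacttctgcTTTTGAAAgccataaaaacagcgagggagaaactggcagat

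The IL1A window held 1 AP-1 match, beginning 12 bases before the start, and 2 C/EBP matches. The IL1B window held 3 C/EBP matches and 1 STAT match, the latter beginning 180 bases before the start. Among all 35116 RefSeq windows of this length, 6.57% held the AP-1 letters, 33.2% the C/EBP letters and 6.57% the STAT letters. A second RefSeq start of IL1A has its window at chr2:112784401-112784650, with 2 AP-1 matches and 1 C/EBP match. Letters of the NF-kB motif, present in 9.96% of all windows, were found in none of these, and the BMP SMAD letters GGCGCC (16.4% of windows) were in the window of IL1RAP alone among members with a RefSeq entry. Such matches describe the letters of these windows only.

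Libraries held 21425118 to 80076597 counts, and 1 count stood for 0.0122 to 0.0437 in counts per 1000000 of the scaled library (CPM). Of the 12 mammary epithelial markers, 11 had over 3 counts in every CT library, KRT19 being the exception. Of 12 leukocyte markers 5 were at 0 in every CT and every M1B26 library and 6 in every MC26 library, and PTPRC (CD45) had at most 2 counts in any library. Their summed level was 19.9 to 25.9 CPM in CT, 41.5 to 51.8 in MC26 and 62.7 to 84.5 in M1B26, of which most was CD14 and CD68. Summed fibroblast markers stood between 17.1 and 56.8 CPM over all libraries, endothelial markers between 2.19 and 8.25, and mast cell markers at or below 0.0676. Within these lists single genes moved. Among fibroblast markers LUM was at 0.108, 0.128 and 5.11 CPM on average in CT, MC26, M1B26 (log2 fold change 5.59 for M1B26 over CT, adjusted p 7.88e-06, edgeR) and COL1A1 was higher by 0.98 in M1B26 (adjusted p 1.63e-04, edgeR). Among epithelial markers KRT14 was 20.2-fold and 10.1-fold above CT in MC26 and M1B26, CDH1 stood at 0.534 and 0.578 of CT, and EPCAM at 0.211 of CT in MC26, all called by edgeR, whereas EPCAM in M1B26 did not pass (0.04 on the log2 scale). LUM and COL1A1 were picked after their values were seen.

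Of the 10 members 9 passed the filter on low counts, and IL36G did not. In MC26 against CT 6 members were higher and 1 lower, where 18.8% and 19.9% of all 15717 tested genes were (38.7% changed). In M1B26 against CT 6 were higher and 2 lower, against 25.2% and 23.7% of all genes (48.9% changed). Between M1B26 and MC26 4 members were higher in M1B26 and 2 lower, where 21.2% and 18.4% of all genes were (39.5% changed). A gene was called changed at a Benjamini-Hochberg adjusted p under 0.05 by the quasi-likelihood test of edgeR, fitted to all genes and all 9 libraries. Comparisons of either transformed line with CT used the same CT libraries. RNA of a whole culture was measured, so fewer expressing cells and less RNA per cell cannot be told apart.

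**Figure D1:**
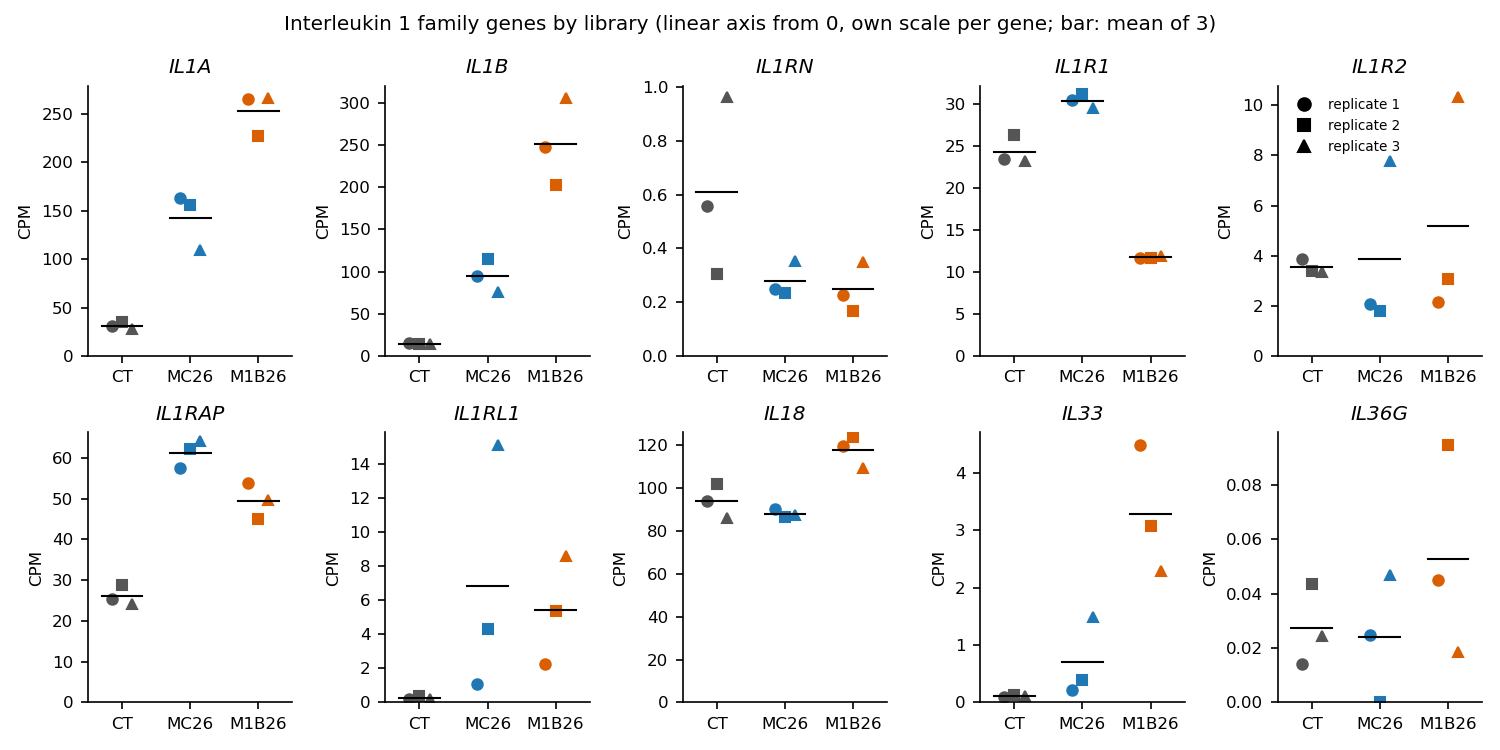
CPM of the 10 IL1 family genes in each library, on a linear axis from 0 with a scale of its own for each gene. Points are single libraries, shaped by replicate number, and bars are means of 3 libraries. IL1A and IL1B lay lowest in CT and highest in M1B26 without overlap, whereas the libraries of MC26 and of M1B26 were widely spread for IL1R2 and IL1RL1.

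The agonists IL1A and IL1B rose from CT to MC26 and again from MC26 to M1B26, with the larger fold change for IL1B. IL1A (chromosome 2, 112773925 to 112784493) was at 30.5, 35.4 and 27.5 CPM in CT replicates 1 to 3, at 163, 156 and 109 in MC26 and at 265, 227 and 267 in M1B26. Every MC26 library lay above every CT library and below every M1B26 library. Its log2 fold change was 2.21 for MC26 over CT (SE 0.15, adjusted p 2.11e-06, edgeR), 3.03 for M1B26 over CT (SE 0.15, adjusted p 2.07e-07, edgeR) and 0.83 for M1B26 over MC26 (SE 0.14, adjusted p 0.00115, edgeR). IL1A was thus 4.62-fold and 8.18-fold above CT.

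IL1B (chromosome 2, 112829751 to 112836816) was at 15.5, 14.3 and 13.7 CPM in the CT libraries, 94.7, 115 and 75.2 in those of MC26 and 247, 202 and 305 in those of M1B26. The same order of lines without overlap was seen. Its log2 fold change was 2.71 for MC26 over CT (SE 0.18, adjusted p 1.54e-06, edgeR), 4.12 for M1B26 over CT (SE 0.18, adjusted p 1.06e-07, edgeR) and 1.41 for M1B26 over MC26 (SE 0.16, adjusted p 1.01e-04, edgeR). These are 6.55-fold, 17.4-fold and 2.65-fold higher levels. CD14 and CD68, monocyte markers that epithelial cells also express, were higher in M1B26 than in CT, with no difference in CD68 past the threshold between M1B26 and MC26 (0.25, adjusted p 0.239, edgeR). CD14 was at 9.07 ± 2.05, 13.2 ± 4.14 and 38.5 ± 8.09 CPM (SD, n = 3) along CT, MC26, M1B26, while PTPRC stayed near 0. CSF1R, the only other leukocyte marker tested, was higher in MC26 than in CT (0.82, adjusted p 0.0379, edgeR). It did not pass in M1B26 against CT (-0.04, adjusted p 0.909, edgeR) and was lower in M1B26 than in MC26 (-0.86, adjusted p 0.0304, edgeR). The part of leukocyte marker transcripts in the IL1B result was not tested.

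The balance between the agonists was read as the ratio of their counts inside each library, which does not depend on scaling. IL1B counts were 0.509, 0.404 and 0.498 of IL1A counts in CT, 0.581, 0.739 and 0.687 in MC26 and 0.933, 0.891 and 1.15 in M1B26. No ranges overlapped. On the log2 scale the ratio was higher by 0.51 (MC26 over CT), 1.07 (M1B26 over CT) and 0.56 (M1B26 over MC26). Each had an exact permutation p of 0.1 (2-sided), the smallest that 3 libraries against 3 can give.

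IL1RN, the antagonist, was scarce in every library and lower in both transformed lines. IL1RN (chromosome 2, 113099315 to 113134016) had 39, 7 and 79 counts in CT, 10, 9 and 15 in MC26 and 10, 7 and 19 in M1B26. In CPM these were 0.557, 0.306 and 0.964 in CT, 0.249, 0.235 and 0.353 in MC26 and 0.225, 0.166 and 0.351 in M1B26. CT replicate 2, the shallowest library, fell inside the range of both other lines. The log2 fold change was -1.22 in MC26 (SE 0.41, adjusted p 0.0353, edgeR) and -1.37 in M1B26 (SE 0.41, adjusted p 0.0161, edgeR) against CT, and -0.15 between M1B26 and MC26 (adjusted p 0.823, edgeR). Without CT replicate 3 the values against CT were -0.71 (adjusted p 0.215, edgeR) and -0.87 (adjusted p 0.114, edgeR), neither past the threshold. In MC26 the call was also lost without CT replicate 1 (adjusted p 0.0589, edgeR), MC26 replicate 1 (0.104), MC26 replicate 2 (0.113) or M1B26 replicate 1 (0.0523), and by DESeq2 (0.0748). In M1B26 it was also lost without M1B26 replicate 1 (adjusted p 0.0583, edgeR) or M1B26 replicate 2 (0.0678). Counts per gene do not separate the secreted from the intracellular forms of IL1RN.

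Set against the agonists, IL1RN was furthest from them in M1B26. IL1RN counts were 1.21%, 0.616% and 2.34% of the summed IL1A and IL1B counts in CT, 0.0964%, 0.0868% and 0.191% in MC26 and 0.0440%, 0.0386% and 0.0613% in M1B26. The lines did not overlap. The difference in log2 ratio was -3.34 for MC26 minus CT, -4.65 for M1B26 minus CT and -1.31 for M1B26 minus MC26. The exact permutation p was 0.1 each time. On the log2 scale the agonists rose by more than IL1RN fell.

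**Figure D2:**
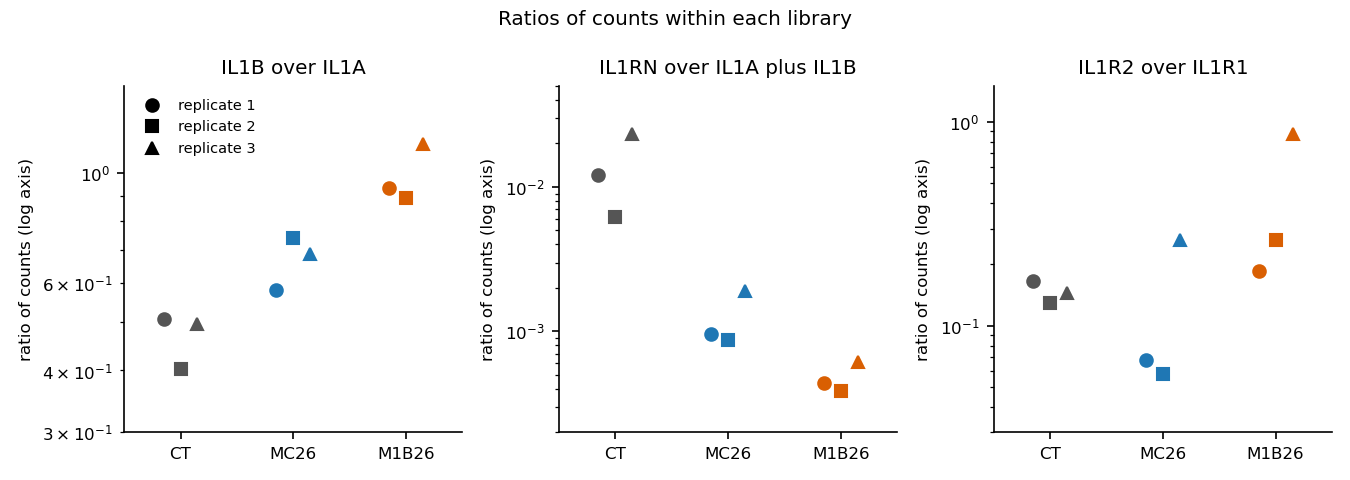
Ratios of counts within each library for IL1B over IL1A, IL1RN over the sum of IL1A and IL1B, and IL1R2 over IL1R1, each on a log axis. Points are single libraries shaped by replicate number. In the first and second panels the 3 lines do not overlap, and in the third MC26 replicate 3 and M1B26 replicate 3 stand above the other libraries of their lines.

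The signalling receptor and its accessory chain moved differently. IL1R1 (chromosome 2, 102064544 to 102179874) was at 23.5, 26.3 and 23.2 CPM in the CT libraries, 30.5, 31.2 and 29.6 in those of MC26 and 11.6, 11.6 and 11.9 in those of M1B26. It was thus highest in MC26 and lowest in M1B26, with no overlap. The log2 fold change was 0.33 for MC26 over CT (SE 0.07, adjusted p 0.00478, edgeR), -1.05 for M1B26 over CT (SE 0.07, adjusted p 1.84e-06, edgeR) and -1.37 for M1B26 over MC26 (SE 0.07, adjusted p 8.09e-07, edgeR). IL1R1 therefore fell to 0.484 of its CT level in the line where its agonists were most abundant.

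IL1RAP (chromosome 3, 190514051 to 190659750), the chain shared by the IL1, IL33 and IL36 receptors, rose in both lines. Its levels were 25.3, 28.9 and 24.2 CPM in the CT libraries, 57.4, 62.1 and 64.2 in those of MC26 and 53.9, 45.0 and 49.7 in those of M1B26. CT lay below both other lines in every library. On the log2 scale it rose by 1.23 in MC26 (SE 0.09, adjusted p 3.27e-06, edgeR) and by 0.93 in the M1B26 line (SE 0.09, adjusted p 1.47e-05, edgeR). The difference of -0.31 between M1B26 and MC26 (SE 0.09, adjusted p 0.0179, edgeR) was not past the threshold without MC26 replicate 2 (adjusted p 0.0575, edgeR), MC26 replicate 3 (0.0515) or M1B26 replicate 2 (0.0768).

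IL1R2 (chromosome 2, 101991960 to 102028544), the decoy, belongs to the ENI10 signature of the study, a list of genes more abundant in CD10-positive MCF10A cells. It was at 3.89, 3.41 and 3.34 CPM in the CT libraries, 2.06, 1.80 and 7.76 in those of MC26 and 2.16, 3.05 and 10.3 in those of M1B26. In each transformed line replicate 3 was above every CT library while replicates 1 and 2 were below every CT library. No comparison passed the threshold, with log2 fold changes of 0.13 in MC26 (SE 0.61, adjusted p 0.885, edgeR), 0.56 in M1B26 (SE 0.60, adjusted p 0.468, edgeR) and 0.43 between them (SE 0.60, adjusted p 0.601, edgeR). Without MC26 replicate 3 the first was -0.88 (adjusted p 0.243, edgeR), and without M1B26 replicate 3 the second was -0.44 (adjusted p 0.528, edgeR). IL1R2 counts were 16.6%, 13.0% and 14.4% of IL1R1 counts in CT, 6.78%, 5.79% and 26.3% in MC26 and 18.6%, 26.2% and 86.8% in M1B26. The log2 ratio was 1.26 higher in M1B26 than in CT, where the ranges did not overlap (exact permutation p 0.1), and was -0.53 in MC26 against CT (exact permutation p 0.4). Without M1B26 replicate 3 the first was 0.60, or 1.52-fold in place of 2.39-fold, and without MC26 replicate 3 the second was -1.21.

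**Figure D3:**
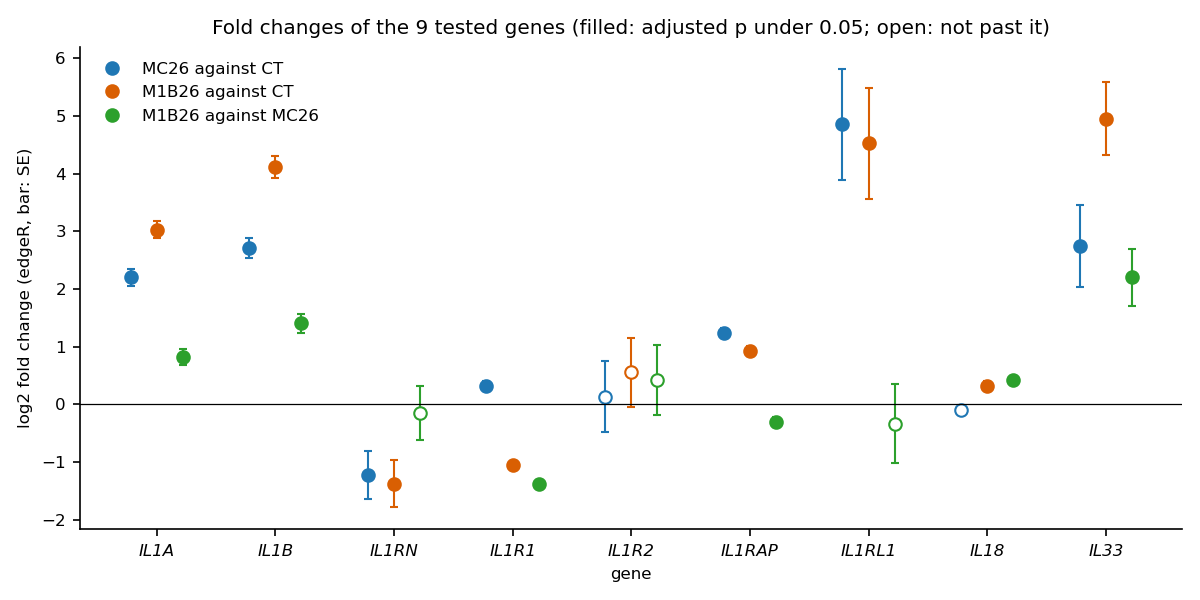
Log2 fold changes of the 9 tested IL1 family genes in the 3 comparisons, by edgeR, with bars of 1 SE. Filled points passed an adjusted p under 0.05 and open points did not. IL1A, IL1B and IL33 were positive in all 3 comparisons, and IL1R1 was positive in MC26 and negative in M1B26.

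The alarmin IL33 and its receptor IL1RL1 were nearly silent in CT and higher in both transformed lines. IL33 (chromosome 9, 6215786 to 6257983) had 6, 3 and 9 counts in CT, 9, 15 and 63 in MC26 and 199, 130 and 124 in M1B26. In CPM it was at 0.0857, 0.131 and 0.110 in CT, at 0.224, 0.392 and 1.48 in MC26 and at 4.48, 3.08 and 2.29 in M1B26. Every M1B26 library lay above every MC26 library and every MC26 library above every CT library. On the log2 scale IL33 was higher by 2.75 in MC26 (SE 0.71, adjusted p 0.0105, edgeR) and 4.95 in M1B26 (SE 0.63, adjusted p 1.01e-04, edgeR) against CT, and 2.20 between M1B26 and MC26 (SE 0.50, adjusted p 0.00531, edgeR). Without MC26 replicate 3 these differences were 1.55 for MC26 against CT (adjusted p 0.0373, edgeR) and 3.41 for M1B26 against MC26 (adjusted p 7.72e-05, edgeR). In a fit of only the CT and MC26 libraries IL33 did not pass the filter on low counts and gave no value. The fold against CT rests on 18 counts in all CT libraries together. The fibroblast markers LUM and COL1A1 were also higher in M1B26 than in both other lines, whereas DCN and PDGFRB were not. COL1A2 and COL3A1 had at most 1 count in any library, and PDGFRA at most 7. The part of fibroblast marker transcripts in the IL33 result was not tested.

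IL1RL1 (chromosome 2, 102311502 to 102352037), the IL33 receptor and another ENI10 gene, was at 0.186, 0.393 and 0.220 CPM in CT. It reached 1.07, 4.29 and 15.1 CPM in MC26 and 2.28, 5.37 and 8.58 in M1B26, which is 14.1-fold between the highest and the lowest MC26 library. All 6 transformed libraries exceeded every CT library. Against CT it was higher by 4.85 on the log2 scale in MC26 (SE 0.96, adjusted p 0.00249, edgeR) and 4.52 in M1B26 (SE 0.96, adjusted p 0.00269, edgeR), and -0.33 between M1B26 and MC26 (SE 0.69, adjusted p 0.731, edgeR). Without MC26 replicate 3 the first was 3.50 (adjusted p 0.00326, edgeR), without MC26 replicate 1 it was 5.37, and without M1B26 replicate 3 the second was 4.01. IL1RL1 shares 95 exonic bases with IL18R1 on the same strand, so reads there could be counted for either. Gene counts do not separate the soluble from the membrane form of ST2.

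IL18 (chromosome 11, 112143253 to 112164096) was the most abundant ligand per kilobase in CT and moved least among the ligands that were tested. It was at 93.9, 101.9 and 85.9 CPM in the CT libraries, 90.2, 86.4 and 87.3 in those of MC26 and 119.5, 124 and 109 in those of M1B26. M1B26 lay above both other lines in every library, whereas MC26 fell within the range of CT. The log2 fold change was 0.33 for M1B26 over CT (SE 0.08, adjusted p 0.00452, edgeR), 0.42 against MC26 (SE 0.08, adjusted p 0.00157, edgeR) and -0.09 for MC26 over CT (SE 0.08, adjusted p 0.366, edgeR). IL36G (chromosome 2, 112973203 to 112985658) had 0 to 4 counts in every library, with totals of 4, 3 and 7 in CT, MC26 and M1B26, and was not tested.

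Levels were compared between genes as CPM per kilobase of annotated exon. In CT the order was IL18 (36.0 ± 3.07, SD, n = 3), IL1A (15.4 ± 1.97), IL1B (4.82 ± 0.312), IL1R1 (3.41 ± 0.241), IL1RAP (2.33 ± 0.219), IL1R2 (1.20 ± 0.101) and IL1RN (0.163 ± 0.0889). IL1RL1 (0.0463 ± 0.0194), IL33 (0.0335 ± 0.00696) and IL36G (0.0200 ± 0.0109) closed the order, and the ranges of mean ± SD overlapped between neighbours among these last 3. In M1B26 IL1A (125.5 ± 11.2) and IL1B (83.6 ± 17.2) stood above IL18 (45.1 ± 2.85), followed by IL1RAP (4.42 ± 0.396). IL1R2 (1.75 ± 1.52), IL1R1 (1.65 ± 0.0232), IL33 (1.01 ± 0.342) and IL1RL1 (0.942 ± 0.549) came next. Ranges of mean ± SD overlapped between IL1R2 and IL1R1 and between IL33 and IL1RL1, but not between IL1R1 and IL33. IL1RN closed this order at 0.0662 ± 0.0253, above only IL36G (0.0384 ± 0.0282) and overlapping it. MC26 had IL1A at 70.8 ± 14.4, and IL18 at 33.8 ± 0.764 lay within the SD of IL1B (31.6 ± 6.65). Its receptor chains followed with IL1RAP at 5.46 ± 0.310 and IL1R1 at 4.27 ± 0.112.

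The other ligands of the family were not expressed to a measurable degree. IL36RN and IL1F10 had 0 counts in every library, and IL36A, IL36B and IL37 had at most 1. Of the other receptors and binding proteins, IL1RL2, IL18RAP and IL1RAPL1 had at most 3 counts in any library, which is the limit of detection used. IL1RL2, which binds the IL36 ligands, and IL18RAP, the second chain of the IL18 receptor, were therefore at or under that limit in all 9 libraries.

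Of the 4 other receptors and binding proteins that were tested, IL18R1, the ligand-binding IL18 receptor, rose in both lines. Its level was 2.01 ± 0.0125 CPM (SD, n = 3) in the CT libraries, 5.49, 5.59 and 5.69 in those of MC26 and 4.21, 5.28 and 4.49 in those of M1B26, without the spread seen for its neighbour IL1RL1. Its log2 fold change was 1.47 in MC26 (SE 0.13, adjusted p 9.25e-06, edgeR) and 1.21 in M1B26 (SE 0.13, adjusted p 2.34e-05, edgeR). SIGIRR, a member of the family that restrains IL1 receptor signalling, was at 5.69, 4.06 and 5.40 CPM in the CT libraries, 2.46, 2.75 and 3.39 in those of MC26 and 7.98, 7.74 and 8.12 in those of M1B26. SIGIRR thus fell in MC26 (log2 fold change -0.84, SE 0.16, adjusted p 0.00170, edgeR) and rose in M1B26 (0.63, SE 0.15, adjusted p 0.00443, edgeR), the reverse of IL1R1. The IL18 antagonist IL18BP did not pass against CT (0.32 in MC26 and -0.23 in M1B26) but was lower in M1B26 than in MC26 (-0.55, adjusted p 0.0302, edgeR). That difference was not past the threshold in 3 of 9 fits without a single library (MC26 replicate 1, M1B26 replicate 2 or M1B26 replicate 3), where its adjusted p was 0.108, 0.107 and 0.0644. Nor did it pass without a filter on low counts (adjusted p 0.0529, edgeR) or with replicate number as a term of the fit. IL1RAPL2 passed in no comparison.

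Lists of pathway genes placed these changes among their partners. Of 17 receptor-proximal signalling genes 14 were tested, of which 5 were higher and 0 lower in MC26 (median log2 fold change 0.16, against 0.00 over all genes) and 3 were higher and 1 lower in M1B26 (median 0.09, against 0.00). These 5 and 4 changed genes of 14 compare with 38.7% and 48.9% of all genes. The 5 became 3 without CT replicate 1 or MC26 replicate 1, with total counts or with only the 6 libraries compared, and 2 without MC26 replicate 2, and the 4 became 2 without M1B26 replicate 3. Of the genes counted as 0 lower by edgeR in MC26, 1 had an unadjusted p under 0.05, and DESeq2 also called 0. MYD88, the adaptor of the pathway, had a mean of 36.2 ± 3.94 CPM (SD, n = 3) in CT, 40.3 ± 2.16 in MC26 and 39.6 ± 0.652 in M1B26 and passed in no comparison. IRAK2, a kinase-like adaptor, rose by 0.70 in MC26 (adjusted p 0.0102, edgeR) and 1.097 in the M1B26 line (SE 0.18, adjusted p 5.00e-04, edgeR).

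Among 20 inflammasome and cytokine processing genes 16 were tested, with 8 higher and 4 lower in MC26 and 8 higher and 5 lower in M1B26 (medians 0.14 and 0.15). Of all tested genes 18.8% were higher and 19.9% lower in MC26, and 25.2% and 23.7% in M1B26. CASP1, whose product cleaves IL1B and IL18, was at 19.6, 21.8 and 17.5 CPM in the CT libraries, 26.4, 27.1 and 28.6 in those of MC26 and 31.8, 33.2 and 35.8 in those of M1B26, and rose by 0.49 and 0.78 on the log2 scale (adjusted p 0.00161 and 4.45e-05, edgeR). The sensor NLRP1 rose by 1.44 (MC26) and 2.08 (M1B26) over CT (adjusted p 1.14e-04 and 5.72e-06, edgeR). It lies on chromosome 17, whose 843 tested genes had a median log2 fold change of 0.00 in MC26 and 0.48 in M1B26 against CT. GSDMD, the pore-forming substrate of caspase 1, rose by 1.22 in M1B26 (SE 0.07, adjusted p 5.65e-07, edgeR), and CTSC, a lysosomal protease, by 1.498 in MC26 and 1.099 in M1B26. GSDME, a related pore former, rose by 1.03 in MC26 and 0.87 in M1B26 (adjusted p 2.08e-06 and 4.12e-06, edgeR).

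MYD88, CASP1 and the following genes were singled out after their values were seen. The sensor NLRP3 had 5, 1 and 12 counts in CT, 187, 105 and 61 in MC26 and 82, 60 and 109 in M1B26, and was higher by 4.83 and 4.09 on the log2 scale (SE 0.50 and 0.51, adjusted p 3.63e-05 and 8.71e-05, edgeR). PYCARD, the adaptor that links NLRP3 to caspase 1, had 2, 0 and 1 counts in CT and 0 in all 6 other libraries.

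**Figure D4:**
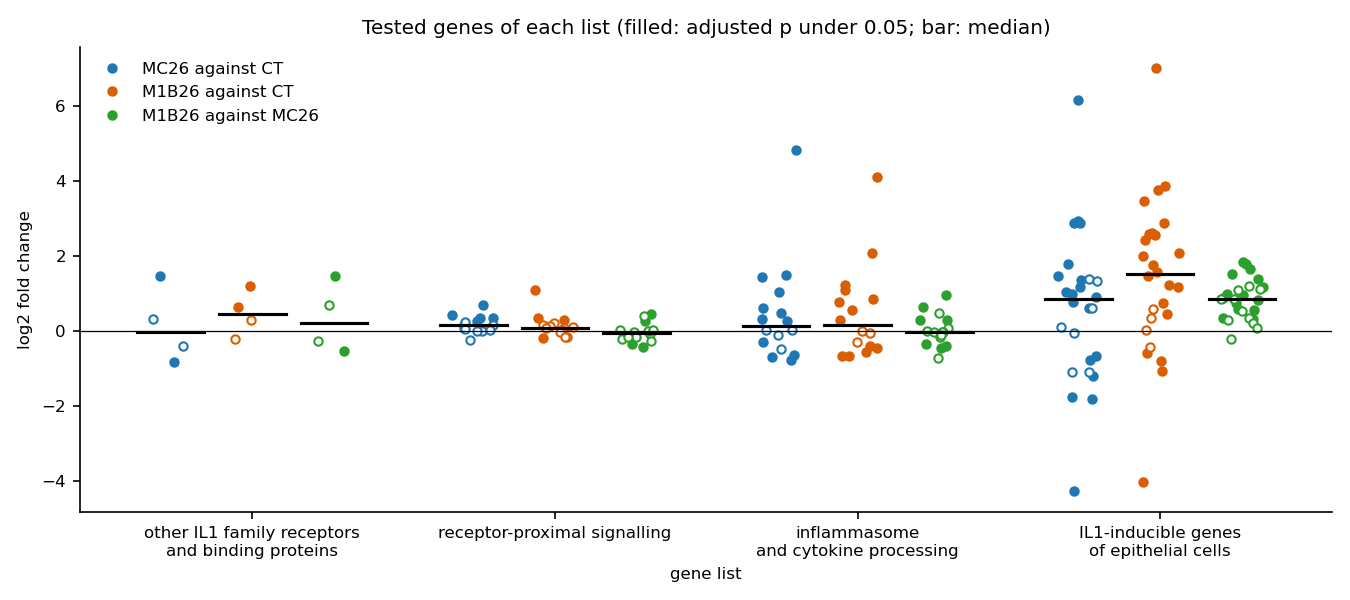
Log2 fold changes of the tested genes of 4 lists in the 3 comparisons, by edgeR. Filled points passed an adjusted p under 0.05, open points did not, and black bars are medians. The genes known to be induced by IL1 had the highest medians, 0.84, 1.51 and 0.85, where the median of all tested genes was 0.00 in each comparison.

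Genes known to be induced by IL1 in epithelial cells were counted last. Of 34 listed 26 were tested, with 13 higher and 6 lower in MC26, 18 higher and 4 lower in M1B26, and 15 higher and 0 lower in M1B26 against MC26 by edgeR. In that last comparison 0 were lower at an unadjusted p under 0.05 and 0 by DESeq2. Their medians were 0.84, 1.51 and 0.85 on the log2 scale. Of all tested genes 18.8% were higher and 19.9% lower in MC26 against CT, and 25.2% and 23.7% in M1B26 against CT. In M1B26 against MC26 these shares were 21.2% and 18.4%. The list was chosen with earlier results of these data known. CSF3, which encodes the granulocyte growth factor G-CSF, was at 33.1, 27.5 and 34.1 CPM in the CT libraries, 243, 264 and 195 in those of MC26 and 424, 449.6 and 514 in those of M1B26. It rose by 2.88 in MC26 (SE 0.13, adjusted p 1.58e-07, edgeR), reaching 3.87 in M1B26 (SE 0.13, adjusted p 1.88e-08, edgeR), and also lies on chromosome 17.

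The chemokine genes CXCL3, CXCL1, CXCL8 and CCL20, which attract neutrophils or, for CCL20, lymphocytes and dendritic cells, rose in both lines. In M1B26 against CT their log2 fold changes were 3.77, 2.88, 2.56 and 2.62, and in MC26 against CT 2.89, 1.05, 0.77 and 1.45. CXCL1, CXCL2 and CXCL3 are similar in sequence, and how shared reads were counted is not known. TNFAIP3, a feedback inhibitor of NF-kB, rose by 1.78 and 2.09 (adjusted p 1.00e-06 and 2.07e-07, edgeR), while TNFAIP2 fell by 1.81 and 1.07 (adjusted p 1.95e-05 and 3.79e-04, edgeR). IL6, itself induced by IL1, its protein being an additive of the medium of both lines, and named after its values were seen, had 123, 47 and 133 counts in CT but 1 to 6 in every other library, and was lower in both lines (-4.26 and -4.04, adjusted p 1.04e-05 and 6.71e-06, edgeR). LIF was at -1.77 and -0.80 and PTGES at -0.66 and -0.59, all called by edgeR and likewise named after their values were seen. The near-identical acute-phase genes SAA1 and SAA2 were higher in M1B26 than in MC26 by 1.53 and 1.66 (adjusted p 0.00862 and 0.0202, edgeR), while against CT SAA1 was lower in MC26 (-1.20, adjusted p 0.0270, edgeR), SAA2 in MC26 did not pass (-1.09, adjusted p 0.103, edgeR), and in M1B26 neither passed (0.33 and 0.57, adjusted p 0.480 and 0.336, edgeR). The call of SAA1 in MC26 was lost in 4 of 9 fits without a single library (CT replicate 1, CT replicate 3, MC26 replicate 1 or MC26 replicate 2), and that of SAA2 between the lines in 3 of 9 fits without a single library (MC26 replicate 1, MC26 replicate 2 or M1B26 replicate 3).

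For each tested member the genes of closest pattern were found by the root mean square difference of log2 (CPM + 0.5), centred on each gene, over the 9 libraries. The added 0.5 flattens members at or below that level, so the distances given for IL33, IL1RN and IL1RL1 depend on it and do not mean equal fold changes. IL1A was closest to KIAA1549L (0.112) and STEAP1 (0.262), and IL1B to CSF3 (0.222) and CXCL3 (0.340), where the members themselves varied by 1.28 and 1.69 about their means. IL33 was closest to MME (0.285), which encodes CD10, and to CXCL1 (0.321), with a variation of its own of 1.16. MME was at 6.53, 8.34 and 6.13 CPM in the CT libraries, 6.19, 12.8 and 21.7 in those of MC26 and 44.2, 51.6 and 43.8 in those of M1B26. IL1RL1 was closest to SERPINB3 (0.380), an epithelial serpin, which was at 4.23, 11.8 and 28.8 CPM in MC26 and at 10.2, 11.9 and 17.8 in M1B26. IL1R1 was closest to CNTNAP2 and MXD1 (0.131 and 0.149), IL1RAP to CEMIP2 and GSDME (0.144 and 0.149), and IL18 to NSL1 and MRPL39 (0.0387 and 0.0402). IL1RN lay nearest CPTP and AHDC1 (0.139 and 0.143) against a variation of 0.329, and IL1R2 nearest SLC7A2 and TSPAN18 (0.459 and 0.493) against 0.714. These distances are descriptions over libraries that share their lines.

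Many of these genes fall in 2 clusters on chromosome 2, and the genes beside them were read. The median log2 fold change of the 914 tested genes of the chromosome was -0.01 in MC26 and -0.02 in M1B26. Around IL1A and IL1B the flanking gene CKAP2L was at 0.14 in MC26 (adjusted p 0.419, edgeR) and -0.34 in M1B26 (adjusted p 0.0543, edgeR), and SLC20A1, the next one out, was at 0.00 (adjusted p 0.980, edgeR) and -0.48 (adjusted p 0.00163, edgeR). CHCHD5, beyond SLC20A1, was at 0.165 (adjusted p 0.387, edgeR) and was higher in M1B26 (0.683, adjusted p 0.00218, edgeR). Beyond IL1RN, PSD4 was at 0.30 (adjusted p 0.0825, edgeR) and -0.84 (adjusted p 3.40e-04, edgeR). PAX8-AS1 was lower in both (-1.17 and -0.94, adjusted p 0.00934 and 0.0171, edgeR), the second not past the threshold without M1B26 replicate 2 or by DESeq2. PAX8 was at 0.733 and 0.217 and passed in neither (adjusted p 0.0553 and 0.547, edgeR). In the receptor cluster IL1R2, IL1R1, IL1RL1 and IL18R1 stood in that order with log2 fold changes of 0.56, -1.05, 4.52 and 1.21 in M1B26, and IL1RL2 between them had 4 counts in all. Before the cluster, MAP4K4 was at 0.755 and 0.475 in MC26 and M1B26 (adjusted p 3.54e-04 and 0.00417, edgeR) and CREG2 at -2.34 and -1.01, of which the first passed (adjusted p 0.00666 and 0.0974, edgeR). Beyond it the nearest tested gene, SLC9A2, was lower in both (-1.54 and -2.49, adjusted p 8.84e-04 and 3.75e-05, edgeR), while MFSD9 was at 0.04 and -0.11 and passed in neither. Neighbouring members of the family thus moved by different amounts and, for IL1R1 and IL1RL1 in M1B26, in opposite directions.

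**Figure D5:**
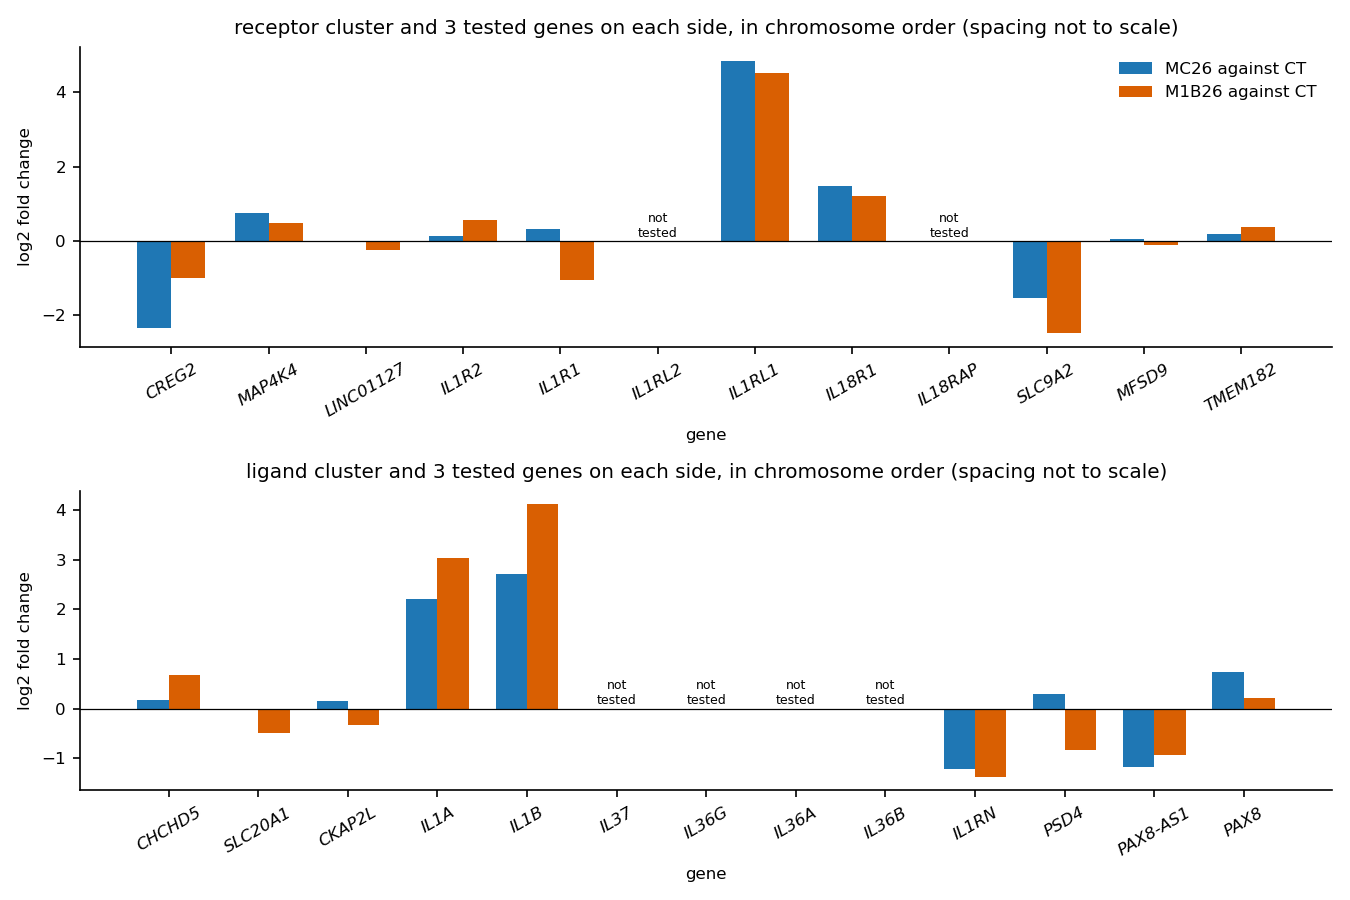
Log2 fold changes of the genes in the receptor cluster and in the ligand cluster of chromosome 2 and of the 3 tested genes on each side, against CT, by edgeR. Bars stand in chromosome order, spacing is not to scale, and genes with too few counts are marked as not tested. IL1A and IL1B in the ligand cluster and IL1RL1 and IL18R1 in the receptor cluster have higher fold changes than every flanking gene in both lines.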

How the data were processed

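RNA with poly-A tails from 9 cultures was read from both fragment ends. Per the labels and the methods, STAR 2.7.3a (GRCh38) and Salmon 1.1.0 were used by the authors. The authors deposited raw counts, 1 row a gene symbol. The methods name Salmon for quantification on protein-coding genes, but the values are whole numbers and cover non-coding genes too. How they were counted, the strand setting and the handling of similar genes are not given in the sources used here. Groups and replicate numbers were taken from the sample titles.

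In R 4.3.3, edgeR 4.0.16 kept 15717 of 29997 symbols with a count (filterByExpr, minimum count 10). A quasi-likelihood model with line as its only term was fitted with TMM scaling and tested 2-sided by glmQLFTest. The SE was the absolute log2 fold change over the square root of F. Ratios had 0.5 added to each count and were compared by exact permutation. Positions and exon lengths came from GENCODE v44 (36923 symbols matched) and sequences from RefSeq. The fit was tested on simulated data. Alternatives were RLE factors, total counts, DESeq2 1.42.0, other filters, fits to 6 libraries, a replicate block, a threshold of 0.01 and leaving out each library.

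All members and other ligands and receptors were named. From the other lists, named genes had an adjusted p under 0.05, at least 2-fold change, at least 5 CPM on average and separate groups, up to 4 a list and comparison. Members and lists were chosen with earlier results of these data known.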

Additional observations from a re-analysis of the deposited data

Results flagged for a closer look

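M1B26 and MC26 were compared directly, which tests whether the lines moved by different amounts from CT. Of the members 6 differed by edgeR. The log2 fold change of M1B26 against MC26 was 0.83 for IL1A, 1.41 for IL1B, 2.20 for IL33, 0.42 for IL18, -1.37 for IL1R1 and -0.31 for IL1RAP. IL1R1 and SIGIRR moved from CT in opposite directions in the lines, and SIGIRR was 1.47 higher in M1B26 than in MC26. Among other pathway genes the difference was 1.83 for CXCL1, 1.79 for CXCL8, 1.66 for SAA2, 1.53 for SAA1, 1.17 for CCL20, 0.98 for CSF3 and 0.88 for CXCL3. It was 0.965 for GSDMD, 0.735 for TNFAIP2, 0.64 for NLRP1, 0.32 for TNFAIP3, 0.30 for CASP1, -0.40 for CTSC and -0.55 for IL18BP. The TNFAIP3 call was lost in 4 and those of CASP1, IL1RAP, IL18BP and SAA2 in 3 of the 9 fits without a single library. That of IL18BP was also lost with no filter on low counts and with replicate number as a term of the fit. With 3 libraries a line, no test for an outlying library was made.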

How the results depend on the processing

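Of 428 member values under 16 alternative fits, 407 kept direction and side of the threshold, 12 lost the call and 9 changed sign. The calls of IL1A, IL1B, IL1R1, IL18, IL33 and of IL1RL1 against CT kept both in every fit that gave a value. IL33 gave none for MC26 against CT in the 6 libraries compared, nor IL1RN at a mean of at least 50 counts, where the filter removed them. At an adjusted p under 0.01, 3698 genes changed in MC26 against CT and 3685 in M1B26 against MC26. Libraries of equal replicate number had correlations of their deviations from the line means of -0.137 to 0.21. In M1B26 against MC26 all were positive (0.148, 0.0701 and 0.157), where unequal numbers gave -0.173 to 0.0478. Whether equal numbers stand for paired cultures is not given in the labels. The replicate block kept 25 of 27 member values, the others being IL1R2 at -0.21 (MC26 against CT) and IL1RL1 at 0.00836 (M1B26 against MC26). Among other named genes the block put IL18BP in M1B26 against MC26 at an adjusted p of 0.0505 and SAA2 in MC26 against CT at 0.0193 (edgeR). Among the values read under it, the block changed no other call given in the text. CHCHD5, PAX8, DCN, PDGFRB and CSF1R were not read under the alternatives. Nor were the values of MYD88, EPCAM, CD68, CKAP2L, SLC20A1, PSD4, CREG2 and MFSD9 that did not pass the threshold. Leaving out each library gave, for MC26 against CT, -0.88 to 0.47 for IL1R2. For M1B26 against CT it gave -0.44 to 0.93 for IL1R2, -0.22 to 0.62 for SAA1 and -0.071 to 0.86 for SAA2. For M1B26 against MC26 it gave -0.51 to 0.060 for IL1RN, -0.58 to 1.44 for IL1R2 and -0.84 to 1.03 for IL1RL1. None of these sign changes was in a called value, and their cause was not tested. IL1RN, IL33 and IL1RL1 had under 20 counts in some or all CT libraries, which limits their fold changes.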
